A study of Mus musculus with 10 samples.

Results

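The nuclear-encoded subunits of oxidative phosphorylation fell together in mouse livers 48 h after carbon tetrachloride (CCl4), and they fell whether or not the gene Bap1 had been targeted. The genes described here are the subunits of respiratory complexes I to IV and of ATP synthase (complex V), with the assembly factors, tissue isoforms and gene copies that carry the same kind of symbol. They were taken by symbol (the Nduf, Sdh, Uqcr, Cox4 to Cox8 and Atp5 families in the nucleus, and the Nd, Co, Cytb and Atp genes of mitochondrial DNA) and by a mean of at least 10 estimated counts over the livers of all 10 mice. Of 55291 genes in the table, 110 matched the symbols and 105 also passed the count, the only measured value the members were selected on. These members comprise 76 nuclear-encoded subunits (36 of complex I, 4 of complex II, 8 of complex III, 11 of complex IV and 17 of complex V), 9 assembly factors, 5 tissue isoforms, 2 gene copies and the 13 mRNAs of mitochondrial DNA. Just under the limit were Cox4i2 with a mean of 8.30 counts, Ndufs6b with 6.42 and Ndufa11b with 6.31, while Cox7b2 and Cox8c had 0. Just above it were Cox6c2 with 12.97 and Cox6a2 with 15.1. Of the 105 members, 104 also passed the filter of the test described below. The exception was Cox8b, whose counts came almost wholly from 1 mouse.

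All 10 mice were females of 16 to 20 weeks carrying a Cas9 Lox-Stop-Lox allele, a Cas9 gene that stays off until Cre recombinase removes its stop cassette, and all received an AAV8-U6-sgRNA-TBG-Cre virus by the tail vein. The guide RNA was non-targeting (NTC) or aimed at Bap1 (sgBap1), a gene for a deubiquitinase. Controls therefore also carried Cas9, Cre and virus. The TBG promoter that drives Cre is known for activity in hepatocytes, and bulk RNA does not show in which cells Bap1 was lost. On day 10 the mice received CCl4 in olive oil, a toxin that hepatocytes around the central veins turn into a damaging radical, or olive oil alone (Veh), and the right lobe was taken 48 h later. Each vehicle group had 2 mice and each CCl4 group had 3, and p-values measure the spread between these mice. RNA was read as stranded, poly(A)-selected libraries, and the deposited values are Salmon's estimated counts per gene.

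Oxidative phosphorylation passes electrons from NADH and succinate through complexes I to IV to oxygen, and ATP synthase uses the proton gradient that this builds. Most subunits are encoded in the nucleus and imported, whereas a core set is encoded in mitochondrial DNA, which is transcribed as long RNAs from both strands and cut into mRNAs. Complex II is wholly nuclear-encoded, and the hepatocyte is rich in mitochondria and depends on them for urea, ketone and glucose synthesis.

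Levels are given in CPM, counts scaled to a common library size after TMM normalization, which centres libraries on the bulk of their genes. Libraries held 3.30e+07 to 5.22e+07 estimated counts, and the floor used for a count of 0, set at 3 counts, equals 0.0511 to 0.112 CPM and covers counting error only. A gene is called when its adjusted p (edgeR's quasi-likelihood test, two-sided, Benjamini-Hochberg over 17015 tested genes) is under 0.05, and differences are log2 fold changes with their standard error (SE). Mice are numbered as in the sample labels. Of all tested genes, 26.3% were called lower and 27.5% higher after CCl4 in NTC, and 27.7% and 29.0% in sgBap1 livers. Bap1 measured 34.8 and 34.8 CPM with vehicle and 30.1, 31.5 and 29.5 CPM with CCl4 in NTC livers, and 17.5 and 19.5 CPM and 16.99, 21.8 and 19.1 CPM in sgBap1 livers, so each sgBap1 liver lay below every NTC liver. The summed level of 8 hepatocyte markers was 115104 to 162435 CPM in the vehicle livers and 67526 to 86613 CPM in the CCl4 livers, with none of the markers at 0. All 8 had negative log2 fold changes after CCl4 in both genotypes, and 7 were called lower in NTC and 4 in sgBap1 livers. Markers of leukocytes (10 genes) summed to 163 to 440.4 CPM with vehicle and 669 to 877 CPM with CCl4, of stellate cells (5) to 75.2 to 105 and 199 to 612, of endothelial cells (4) to 108 to 149 and 147 to 185, of bile duct cells (3) to 4.03 to 6.37 and 10.97 to 15.1, and of cycling cells (2) to 4.36 to 8.67 and 107 to 213 CPM. The stellate sum of 612 CPM was that of sgBap1-CCl4 2, and the other CCl4 livers held 199 to 304 CPM. Single markers did not all follow these sums. After CCl4, 7 leukocyte markers were called higher and 0 lower in NTC, and 6 and 1 in sgBap1 livers. Among endothelial markers these counts were 2 and 0 in NTC, and 2 and 1 in sgBap1 livers. In bulk tissue, fewer cells of a type and less RNA per cell cannot be told apart, and the part of these cell types in the results was not tested. One liver stood apart: sgBap1-CCl4 2 held 127 CPM of 4 fat cell markers, with Adipoq at 36.4 and Plin1 at 34.5 CPM, and 113 CPM of the brown fat markers Ucp1 and Cidea. The other 9 livers held 0.565 to 15.4 and 0.0269 to 0.547 CPM. All but a trace of the 15.4 CPM came from Cidec, and Ucp1 had at most 1 count in any of these 9 livers. Results that rest on that liver are given with and without it. The 4 markers of skeletal and heart muscle summed to at most 0.137 CPM.

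The nuclear-encoded subunits fell in all 5 complexes after CCl4. In NTC livers 74 of the 76 were called lower and none higher, against 26.3% of all tested genes called lower and 27.5% called higher (53.8% in either direction). Their median log2 fold change was -0.76, which is 59.0% of the NTC-Veh level, beside a median of 0.03 over all tested genes. In sgBap1 livers 75 of 76 were called lower and none higher, against 27.7% and 29.0% of all tested genes (56.7% in either direction), with a median of -0.80 (57.3% of the sgBap1-Veh level) beside 0.04. Over all nuclear members tested, 91 genes with isoforms and assembly factors included, the CCl4 livers lay wholly below the vehicle livers for 84 genes in NTC and 84 in sgBap1, against 35.0% and 34.9% of all tested genes. They lay wholly above for 2 genes in each genotype, against 36.7% and 37.3%. By complex, the medians in NTC and sgBap1 livers were -0.76 and -0.77 for complex I, -0.84 and -0.90 for complex II, -0.77 and -0.80 for complex III, -0.79 and -0.70 for complex IV, and -0.73 and -0.82 for complex V. Scaled by library size alone, the median of all genes itself moved to 0.50 in NTC and 0.52 in sgBap1. Over the 91 nuclear members the medians were then -0.27 and -0.29 against -0.75 and -0.77 with TMM, the same direction, with 44 and 48 called lower against 82 and 83 with TMM. Relative to the median of all genes the medians were -0.78 and -0.81 under either scaling. This holds by construction, because a change of scaling moves all genes nearly alike, and it does not test the fall.

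**Figure D1:**
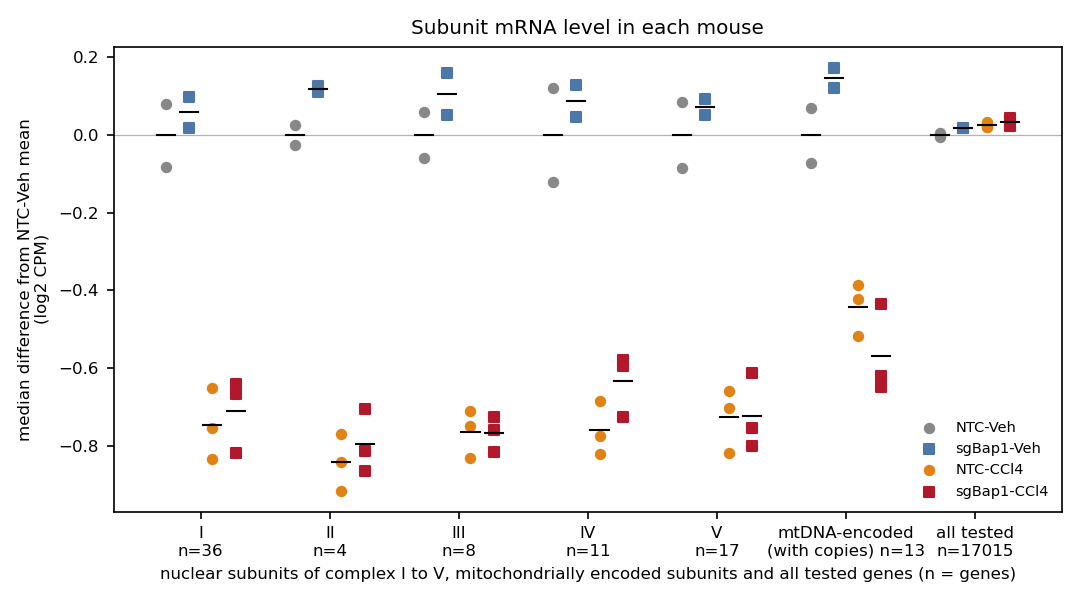
Each point is 1 mouse, and its height is the median, over the genes of a set, of the difference in log2 CPM from the mean of the NTC-Veh livers. Bars are group means. For all 91 tested nuclear members together the medians of the 6 CCl4 livers were -0.62 to -0.83 and those of the 4 vehicle livers -0.08 to 0.10. The 13 mitochondrial mRNAs, summed with their nuclear copies, were at -0.39 to -0.65 with CCl4 on this TMM scale. As deposited, without the copies, scaling by library size alone turned the sign of their median log2 fold change in NTC livers (0.04).

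Complex II, succinate dehydrogenase, links the tricarboxylic acid cycle to the respiratory chain, and its 4 subunits were called lower in both genotypes. Sdhb, the iron-sulfur subunit, measured 178 and 162 CPM in NTC-Veh and 66.6, 73.3 and 65.5 CPM in NTC-CCl4 livers, and 206 and 198 CPM in sgBap1-Veh and 68.8, 82.8 and 72.1 CPM in sgBap1-CCl4 livers. The highest CCl4 liver lay below the lowest vehicle liver by a wide margin, and Sdhb had the lowest log2 fold change of the 76 subunits, -1.31 (SE 0.102, adjusted p = 4.81e-06) in NTC and -1.44 (SE 0.102, adjusted p = 2.88e-06) in sgBap1 livers, or 40.3% and 36.8% of the vehicle level. Sdha, the flavoprotein that oxidizes succinate, measured 472 and 485 CPM in NTC-Veh and 282, 288 and 291 CPM in NTC-CCl4 livers, and 527 and 501 CPM in sgBap1-Veh and 277, 288 and 296 CPM in sgBap1-CCl4 livers. Its log2 fold changes were -0.74 (SE 0.0943, adjusted p = 9.83e-05) in NTC and -0.84 (SE 0.0942, adjusted p = 3.85e-05) in sgBap1 livers. The membrane anchors Sdhc and Sdhd lay between them, at -0.83 and -0.84 in NTC and -0.89 and -0.91 in sgBap1 livers. Vehicle and CCl4 livers did not overlap for any of the 4 subunits.

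Complex I, NADH dehydrogenase, is the largest of the complexes, and 35 of its 36 nuclear-encoded subunits were called lower in NTC and all 36 in sgBap1 livers. The 7 core subunits, which carry the flavin and the iron-sulfur clusters, were all called lower, with medians of -0.76 and -0.72. Ndufa6, an accessory subunit of the matrix arm, measured 128 and 119.9 CPM in NTC-Veh and 50.2, 60.2 and 45.2 CPM in NTC-CCl4 livers, and 134 and 141 CPM in sgBap1-Veh and 54.04, 50.04 and 58.7 CPM in sgBap1-CCl4 livers. The highest CCl4 liver lay far below the lowest vehicle liver, and the log2 fold changes were -1.26 (SE 0.119, adjusted p = 1.45e-05) in NTC and -1.34 (SE 0.119, adjusted p = 9.32e-06) in sgBap1 livers. Ndufb10, an accessory subunit of the membrane arm, measured 127 and 118 CPM in NTC-Veh and 59.2, 62.99 and 54.4 CPM in NTC-CCl4 livers, and 122 and 136 CPM in sgBap1-Veh and 52.4, 50.5 and 62.6 CPM in sgBap1-CCl4 livers. It followed Ndufa6 in size of change, at -1.06 (SE 0.1096, adjusted p = 2.48e-05) in NTC and -1.23 (SE 0.1096, adjusted p = 9.81e-06) in sgBap1 livers. At the other end in NTC livers was Ndufs6, an accessory subunit that binds zinc. It measured 62.2 and 55.3 CPM in NTC-Veh and 64.1, 46.4 and 38.96 CPM in NTC-CCl4 livers, and 67.7 and 61.9 CPM in sgBap1-Veh and 40.5, 41.7 and 46.7 CPM in sgBap1-CCl4 livers. The NTC groups overlapped through NTC-CCl4 1 alone, while the sgBap1 groups did not. Its log2 fold changes were -0.24 (SE 0.175, adjusted p = 0.277) in NTC and -0.59 (SE 0.174, adjusted p = 0.0149) in sgBap1 livers, and the call in sgBap1 was lost without sgBap1-Veh 1 (adjusted p = 0.0935). The interaction, the CCl4 effect in sgBap1 minus that in NTC, was -0.36 (SE 0.248, adjusted p = 0.6798) for Ndufs6.

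Complex III passes electrons from ubiquinol to cytochrome c, and its 8 nuclear-encoded subunits were called lower in both genotypes. Uqcr11, a small accessory subunit, measured 117 and 101 CPM in NTC-Veh and 53.4, 55.4 and 51.7 CPM in NTC-CCl4 livers, and 116 and 134 CPM in sgBap1-Veh and 55.4, 53.1 and 61.5 CPM in sgBap1-CCl4 livers. The groups did not overlap, and its log2 fold changes of -1.03 (SE 0.102, adjusted p = 1.96e-05) in NTC and -1.14 (SE 0.102, adjusted p = 1.00e-05) in sgBap1 livers were the lowest of complex III, followed by Uqcrq at -0.90 and -0.94. Uqcrfs1, the Rieske iron-sulfur protein, measured 198 and 187 CPM in NTC-Veh and 116, 116 and 102 CPM in NTC-CCl4 livers, and 195 and 195 CPM in sgBap1-Veh and 109, 119.5 and 114 CPM in sgBap1-CCl4 livers, and Uqcrc1, a core protein of the matrix side, had log2 fold changes of -0.73 and -0.76. Both lay near the median of complex III. Uqcr10 changed least, at -0.54 (SE 0.109, adjusted p = 0.00184) in NTC and -0.56 (SE 0.109, adjusted p = 0.00144) in sgBap1 livers. Uqcrb, at -0.63 in NTC and -0.92 in sgBap1 livers, had an interaction of -0.28 (SE 0.189, adjusted p = 0.664).

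Complex IV, cytochrome c oxidase, reduces oxygen, and the 11 nuclear-encoded subunits used in liver were called lower in both genotypes. Cox6c measured 178 and 154 CPM in NTC-Veh and 88.3, 87.2 and 81.6 CPM in NTC-CCl4 livers, and 169.7 and 181 CPM in sgBap1-Veh and 83.2, 89.8 and 96.5 CPM in sgBap1-CCl4 livers. Vehicle and CCl4 livers did not overlap, and its log2 fold changes were -0.95 (SE 0.0988, adjusted p = 2.50e-05) in NTC and -0.96 (SE 0.0988, adjusted p = 2.22e-05) in sgBap1 livers. Cox8a measured 173 and 146 CPM in NTC-Veh and 81.1, 96.4 and 71.7 CPM in NTC-CCl4 livers, and 159 and 138 CPM in sgBap1-Veh and 99.01, 112 and 87.00 CPM in sgBap1-CCl4 livers. The change was -0.94 (SE 0.148, adjusted p = 0.000397) in NTC and -0.58 (SE 0.148, adjusted p = 0.00704) in sgBap1 livers, and the call in sgBap1 was lost without sgBap1-Veh 1 (adjusted p = 0.0696). Cox7b was at -0.82 and -1.02, the lowest of the 11 in sgBap1 livers. Cox7a2 was the highest, at -0.48 and -0.41, and its call in sgBap1 was lost without sgBap1-Veh 2 (adjusted p = 0.0613). Cox4i1, the ubiquitous form of subunit 4, measured 323 and 283 CPM in NTC-Veh and 191, 206 and 192 CPM in NTC-CCl4 livers, and 318 and 330.1 CPM in sgBap1-Veh and 207, 228 and 229 CPM in sgBap1-CCl4 livers.

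Complex V, ATP synthase, had 16 of its 17 nuclear-encoded subunits called lower in both genotypes. Atp5c1, the gamma subunit of the turning stalk, measured 245 and 235 CPM in NTC-Veh and 135, 130.1 and 124 CPM in NTC-CCl4 livers, and 241 and 255 CPM in sgBap1-Veh and 121, 124 and 135 CPM in sgBap1-CCl4 livers. Its log2 fold changes were -0.89 (SE 0.09101, adjusted p = 2.29e-05) in NTC and -0.97 (SE 0.09098, adjusted p = 1.29e-05) in sgBap1 livers. Atp5h, subunit d of the peripheral stalk, measured 178 and 158 CPM in NTC-Veh and 94.6, 91.6 and 86.6 CPM in NTC-CCl4 livers, and 179.7 and 195 CPM in sgBap1-Veh and 86.6, 88.1 and 100.03 CPM in sgBap1-CCl4 livers. The groups did not overlap for either gene, and Atp5h had the lowest value of complex V in sgBap1 livers, -1.03 against -0.88 in NTC, followed by Atp5j, a coupling factor of the peripheral stalk, at -0.97 and -0.86. Per kilobase of transcript, Atp5b, the catalytic beta subunit, had the highest level in NTC-Veh of the 74 nuclear-encoded subunits whose transcript length could be matched, at 586 CPM per kb. Its CPM fell from 1092 and 1154 to 690.2, 733 and 715 in NTC and from 1089.6 and 1054 to 728, 806 and 718 in sgBap1 livers, a log2 fold change of -0.66 and -0.51. The subunit that was not called was Atp5g2, a gene for the c subunit of the rotor. It measured 77.8 and 62.4 CPM in NTC-Veh and 51.8, 66.6 and 48.6 CPM in NTC-CCl4 livers, and 76.2 and 63.9 CPM in sgBap1-Veh and 57.4, 64.8 and 56.5 CPM in sgBap1-CCl4 livers, with vehicle and CCl4 livers overlapping in both genotypes, and log2 fold changes of -0.33 (SE 0.149, adjusted p = 0.0853) in NTC and -0.23 (SE 0.1497, adjusted p = 0.206) in sgBap1 livers. Of its 50-base stretches 38.3% are shared with other genes. Atp5mpl, a small proteolipid of the complex, was at -0.41 (SE 0.123, adjusted p = 0.01703) in NTC and -0.52 (SE 0.123, adjusted p = 0.00468) in sgBap1 livers, and its NTC call was lost without NTC-Veh 1 (adjusted p = 0.156) or NTC-CCl4 3 (adjusted p = 0.0606).

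**Figure D2:**
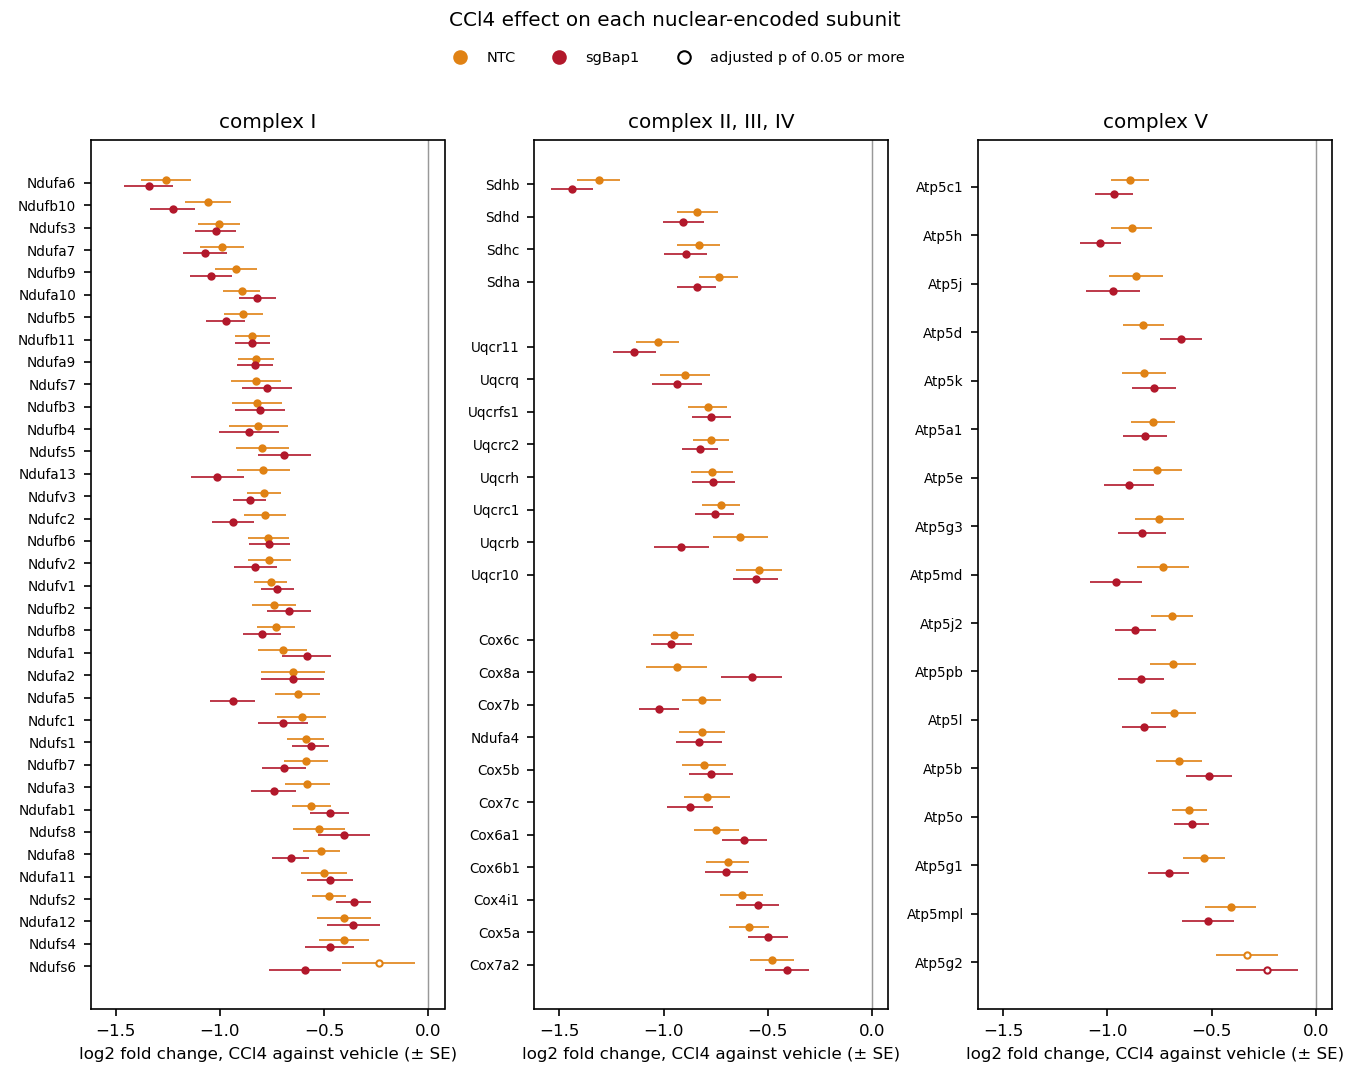
Log2 fold change of CCl4 against vehicle for each of the 76 nuclear-encoded subunits, with the standard error of the fit as bars, in NTC (orange) and sgBap1 (red) livers, on the TMM scale. Open circles have an adjusted p of 0.05 or more: Ndufs6 in NTC livers and Atp5g2 in both. All points lie below 0.

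For each complex, the promoter of the subunit with the lowest log2 fold change in NTC livers, among members with a RefSeq promoter entry, is shown because nuclear respiratory genes are known for sites of the factors NRF1, GABP and YY1. They cover the 250 bases before the RefSeq start on GRCm38.p6, read in the direction of the gene, with matches to the motif letters in capitals (GCATGCGC for NRF1, CCGGAAG for GABP, AAGATGGC for YY1, both strands searched). Of these 5 stretches, those of Ndufa6, Sdhb and Uqcr11 hold 1 match each, and those of Cox8a and Atp5c1 hold 0. The 300-base promoters counted below hold more. There Cox8a matched the letters of GABP, Sdhb and Uqcr11 those of NRF1 and GABP, Ndufa6 those of NRF1, and Atp5c1 matched none. The Ndufa6 stretch is chr15:82354292-82354541 on the - strand, the Sdhb stretch chr4:140961021-140961270 on the + strand, the Uqcr11 stretch chr10:80406822-80407071 on the - strand, the Cox8a stretch chr19:7217617-7217866 on the - strand and the Atp5c1 stretch chr2:10080511-10080760 on the - strand.
Ndufa6: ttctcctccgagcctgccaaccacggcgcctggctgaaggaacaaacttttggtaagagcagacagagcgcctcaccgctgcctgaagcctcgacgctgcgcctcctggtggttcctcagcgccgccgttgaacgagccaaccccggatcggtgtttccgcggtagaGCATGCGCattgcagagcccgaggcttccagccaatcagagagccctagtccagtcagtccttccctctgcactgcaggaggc
Sdhb: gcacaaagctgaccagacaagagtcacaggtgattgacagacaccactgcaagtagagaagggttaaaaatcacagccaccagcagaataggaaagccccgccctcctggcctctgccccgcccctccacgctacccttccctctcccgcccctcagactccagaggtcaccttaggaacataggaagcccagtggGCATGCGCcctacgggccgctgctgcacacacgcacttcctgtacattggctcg
Uqcr11: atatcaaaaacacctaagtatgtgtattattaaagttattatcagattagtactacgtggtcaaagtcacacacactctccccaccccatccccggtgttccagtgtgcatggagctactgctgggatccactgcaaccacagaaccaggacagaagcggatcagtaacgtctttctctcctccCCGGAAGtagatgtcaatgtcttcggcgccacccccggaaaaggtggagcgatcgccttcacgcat
Cox8a: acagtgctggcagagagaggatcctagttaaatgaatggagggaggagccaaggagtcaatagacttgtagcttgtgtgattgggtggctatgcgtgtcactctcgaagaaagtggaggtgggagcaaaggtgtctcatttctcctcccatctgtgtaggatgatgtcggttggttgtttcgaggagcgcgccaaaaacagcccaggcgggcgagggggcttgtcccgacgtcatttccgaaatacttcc
Atp5c1: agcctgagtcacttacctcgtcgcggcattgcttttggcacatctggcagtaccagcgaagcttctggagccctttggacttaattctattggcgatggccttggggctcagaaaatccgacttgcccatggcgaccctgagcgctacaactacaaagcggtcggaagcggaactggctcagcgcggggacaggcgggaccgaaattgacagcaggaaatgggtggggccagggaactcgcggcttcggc

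Promoters from RefSeq were matched for 75 of the 92 nuclear members (80 promoters, of 32851 in all and 15237 of tested genes), each with 300 bases around the start. GCATGCGC was found in 15% of the member promoters, against 4.53% of those of all tested genes and 2.71% of all promoters. CCGGAAG was found in 23.8%, 15.5% and 8.86%, AAGATGGC, searched for YY1, in 13.8%, 3.88% and 2.75%, and TATAAA in 10%, 8.27% and 13.6%. Each motif was searched on both strands. CCGGAAG ends in AAG, the letters that open AAGATGGC, so a single stretch can match both. At least 1 of the first 3 motifs was in the promoters of 35 of the 75 genes. In the 250 bases before the start alone the shares in member promoters were 11.3%, 17.5%, 1.25% and 8.75%, so that most AAGATGGC matches lay after the start. A match describes the letters of the window and is not a measured site.

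The 13 mRNAs of mitochondrial DNA need care, because chromosome 1 carries a long, nearly identical copy of part of mitochondrial DNA in which several pseudogenes are annotated (GENCODE vM21 on GRCm38). The sequences below show how little tells them apart. The first 60 bases of mt-Nd3 (chrM:9459-9518, + strand) and of its copy Gm28438 (chr1:24613060-24613119, - strand) differ at the base in capitals, T3C, with the mitochondrial base first and positions counted from the first base of the gene. That was the only difference over 345 bases. The last bases of mt-Co2 (chrM:7637-7696, + strand) and of its copy Gm28661 (chr1:24614885-24614941, - strand) are identical up to the 3 in capitals, which the annotated copy lacks.
mt-Nd3: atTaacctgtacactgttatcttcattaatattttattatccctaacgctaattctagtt
Gm28438: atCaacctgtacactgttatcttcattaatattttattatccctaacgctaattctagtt
mt-Co2: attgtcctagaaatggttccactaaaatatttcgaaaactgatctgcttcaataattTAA
Gm28661: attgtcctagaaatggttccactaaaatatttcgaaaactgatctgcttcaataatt

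Over the length of the copy, mt-Co2 (681 bases), mt-Co3 (783), mt-Atp6 (678) and mt-Nd4l (294) were identical to it, and mt-Co1 differed at 6 of 492 bases. The share of a pair's counts placed on the mitochondrial gene was 0.676% to 1.56% for mt-Co2, 2.50% to 4.96% for mt-Atp6 and 2.92% to 8.25% for mt-Co3. It was 8.77% to 32.6% for mt-Nd3, 46.9% to 100% for mt-Nd4l and 84.1% to 92.3% for mt-Co1. For mt-Nd3 and mt-Nd4l the share varied between mice of the same group as much as between groups: in NTC-Veh it was 51.9% and 100% for mt-Nd4l, and 10.2% and 29.4% for mt-Nd3. Counts of each mitochondrial gene were therefore also summed with those of its chromosome 1 copy, a step chosen after seeing the data, and both sets of values are given. The other 6 mRNAs have no such copy, and for mt-Nd4 at least 99.9988% of the pair's counts lay on the mitochondrial gene.

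**Figure D3:**
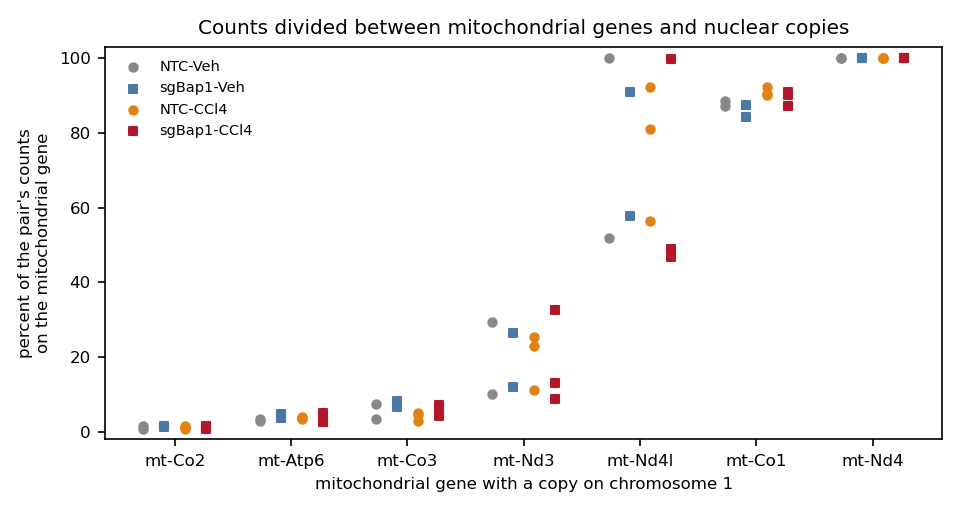
Percent of the counts of a mitochondrial gene and its chromosome 1 copy that were placed on the mitochondrial gene, 1 point a mouse, in 4 groups. The shares of mt-Nd4l run from 46.9% to 100% and those of mt-Co2 stay at or under 1.56%.

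Mitochondrial mRNAs, without their copies, were 4.49% to 5.63% of a library. On the TMM scale the 13 had a median log2 fold change after CCl4 of -0.44 in NTC livers (73.8% of NTC-Veh) and -0.74 in sgBap1 livers (59.9% of sgBap1-Veh), although scaling by library size alone gave 0.04 in NTC and -0.26 in sgBap1 livers. Called lower were 6 of 13 in NTC and 11 of 13 in sgBap1 livers, beside 26.3% and 27.7% of all tested genes, and none was called higher. The sgBap1 count was 9 and the median -0.60 without sgBap1-CCl4 2, the liver with fat cell RNA, beside 4312 of 16825 tested genes called lower. Without NTC-Veh 1 the NTC count was 1, and by library size alone the counts were 0 and 1. Summed with the copies, 8 of 13 were called lower in NTC (median -0.44) and 13 of 13 in sgBap1 livers (median -0.65). Leaving out 1 mouse at a time, the summed count was 1 without NTC-Veh 1 and up to 11 in NTC livers, and 12 or 13 in sgBap1 livers.

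Of the complex I mRNAs, mt-Nd5 had no large chromosome 1 copy and measured 4120.2 and 3699 CPM in NTC-Veh and 2987, 2729 and 2936 CPM in NTC-CCl4 livers, and 3489.9 and 3207 CPM in sgBap1-Veh and 2495, 2263 and 2087 CPM in sgBap1-CCl4 livers. All CCl4 livers lay below all vehicle livers, and its log2 fold changes were -0.44 (SE 0.133, adjusted p = 0.01705) in NTC and -0.55 (SE 0.132, adjusted p = 0.00484) in sgBap1 livers. The NTC call was lost without NTC-Veh 1 (adjusted p = 0.118). mt-Nd6, the only mRNA read from the light strand, was the mitochondrial gene with the lowest level per kilobase once copies were summed, and measured 169 and 105 CPM in NTC-Veh and 82.4, 91.9 and 55.6 CPM in NTC-CCl4 livers, and 241 and 170.4 CPM in sgBap1-Veh and 58.5, 61.3 and 69.4 CPM in sgBap1-CCl4 livers. Its log2 fold changes were -0.84 (SE 0.252, adjusted p = 0.0194) in NTC and -1.71 (SE 0.253, adjusted p = 0.000388) in sgBap1 livers, and the NTC call was lost without NTC-Veh 1 (adjusted p = 0.215). mt-Nd2 was at -0.57 and -0.74 and mt-Nd4 at -0.49 and -0.65, called in both genotypes. Their NTC calls were lost without NTC-Veh 1, where the values were -0.48 for mt-Nd2 and -0.38 for mt-Nd4. mt-Nd1 was called in sgBap1 livers at -0.58 (SE 0.143, adjusted p = 0.005702) and was at -0.26 (SE 0.143, adjusted p = 0.155) in NTC livers. mt-Nd3 and mt-Nd4l were not called as deposited. Summed with their copies they were at -0.42 (SE 0.171, adjusted p = 0.0582) in NTC and -0.76 (SE 0.171, adjusted p = 0.00326) in sgBap1 livers for mt-Nd3 and -0.33 (SE 0.136, adjusted p = 0.0623) in NTC and -0.45 (SE 0.136, adjusted p = 0.0166) in sgBap1 livers for mt-Nd4l.

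mt-Cytb, the cytochrome b of complex III, measured 11243 and 10191 CPM in NTC-Veh and 7608, 7022 and 7613 CPM in NTC-CCl4 livers, and 10586 and 12116 CPM in sgBap1-Veh and 6857, 6829.9 and 8185 CPM in sgBap1-CCl4 livers. Vehicle and CCl4 livers did not overlap, and its log2 fold changes were -0.53 (SE 0.145, adjusted p = 0.0104) in NTC and -0.64 (SE 0.145, adjusted p = 0.00363) in sgBap1 livers, the NTC call being lost without NTC-Veh 1 (adjusted p = 0.0761). In complex IV, mt-Co1 had the most counts of the 13, at 26233 and 24792 CPM in NTC-Veh and 17733, 15976 and 16777 CPM in NTC-CCl4, and 28865 and 24118 against 15387, 15691 and 16512 CPM in sgBap1 livers. Its log2 fold changes were -0.60 (SE 0.143, adjusted p = 0.00495) in NTC and -0.74 (SE 0.143, adjusted p = 0.00134) in sgBap1 livers, and the NTC call held without each of the 10 mice in turn. mt-Co2 and mt-Co3 depended on the copies. As deposited their NTC values were -0.20 (SE 0.383, adjusted p = 0.693) and -0.98 (SE 0.372, adjusted p = 0.0519), and summed they were -0.30 (SE 0.155, adjusted p = 0.129) and -0.56 (SE 0.156, adjusted p = 0.0113). In sgBap1 livers they were -1.05 (SE 0.379, adjusted p = 0.0435) and -1.29 (SE 0.372, adjusted p = 0.0161) as deposited, and -0.61 (SE 0.155, adjusted p = 0.00677) and -0.79 (SE 0.156, adjusted p = 0.00151) summed. As deposited, the mt-Co2 call in sgBap1 livers was lost in 7 of the 10 fits that leave out 1 mouse, with adjusted p-values up to 0.145, that of mt-Atp6 in 4, up to 0.164, and that of mt-Co3 without sgBap1-Veh 2 (adjusted p = 0.123). In complex V, mt-Atp8 measured 1474 and 1396 CPM in NTC-Veh and 1238, 1046 and 1201 CPM in NTC-CCl4 livers, and 1561 and 1467 CPM in sgBap1-Veh and 1063, 922 and 1061 CPM in sgBap1-CCl4 livers, at -0.30 (SE 0.127, adjusted p = 0.0657) in NTC and -0.58 (SE 0.127, adjusted p = 0.002997) in sgBap1 livers. mt-Atp6 was at -0.26 (SE 0.329, adjusted p = 0.539) in NTC and -0.98 (SE 0.326, adjusted p = 0.0286) in sgBap1 livers as deposited and at -0.43 (SE 0.145, adjusted p = 0.0269) in NTC and -0.67 (SE 0.144, adjusted p = 0.00277) in sgBap1 livers when summed.

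**Figure D4:**
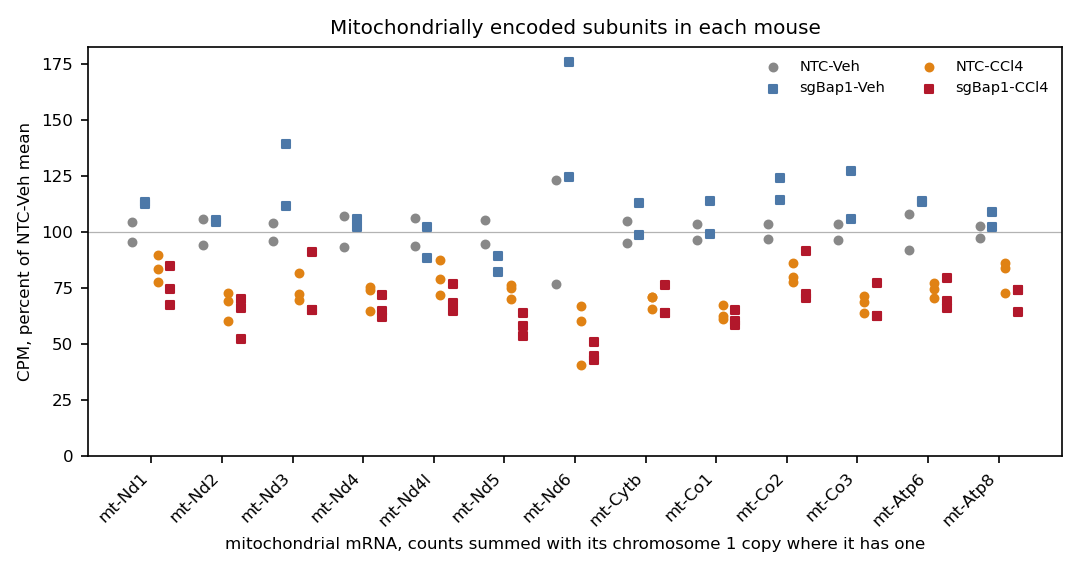
CPM of each mitochondrial mRNA in each mouse as percent of the NTC-Veh mean, with counts summed with the chromosome 1 copy where there is one. On this TMM scale the CCl4 livers lie below the NTC-Veh mean for all 13. As deposited, without the copies, scaling by library size alone turned the sign of the median log2 fold change of the 13 in NTC livers (0.04). The highest point is mt-Nd6 in 1 sgBap1-Veh liver, at 240.7 CPM against an NTC-Veh mean of 137 CPM.

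Nuclear and mitochondrial subunits thus had different medians in NTC livers and closer ones in sgBap1 livers. Without sgBap1-CCl4 2, the liver with fat cell RNA, the sgBap1 medians as deposited were -0.80 (nuclear) and -0.60 (mitochondrial). The NTC medians in that fit were -0.75 and -0.44. By mouse, the median difference from NTC-Veh was -0.75, -0.67 and -0.83 for nuclear members and -0.39, -0.52 and -0.42 for the summed mitochondrial mRNAs in NTC-CCl4 1, 2 and 3. In each of the 3 livers the nuclear value lay below the mitochondrial one. In sgBap1-CCl4 livers the nuclear medians were -0.80, -0.71 and -0.62 and the mitochondrial ones -0.62, -0.65 and -0.44, again with the nuclear value below in all 3. On this scale the gap between them was smallest in sgBap1-CCl4 2, the liver with fat cell RNA. A ratio that no scaling touches gives the same order in part: counts of mitochondrial mRNAs and copies per count of nuclear members were 8.13 and 7.94 in NTC-Veh, 8.49 and 8.20 in sgBap1-Veh, 10.01, 8.53 and 9.99 in NTC-CCl4, and 8.85, 8.08 and 9.25 in sgBap1-CCl4 livers. The NTC groups did not overlap. The sgBap1 groups overlapped through sgBap1-CCl4 2 alone, the liver with fat cell RNA. This ratio shows unequal change of the 2 genomes, not which of them changed. Poly(A) selection reads most mitochondrial mRNAs through short tails. How well it captured each of them, mt-Nd6 included, and its part in the ratio were not tested.

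The tissue isoforms of complex IV, forms of a subunit best known from muscle, heart or testis, included 2 genes called higher after CCl4, Cox6a2 and Cox6b2. Both averaged under 10 counts in the vehicle livers and are members only through their CCl4 livers, so their direction is tied to how members were chosen and is given as a description. Cox6a2, the muscle form of subunit 6a, had 0 and 3 counts in NTC-Veh and 13, 29 and 15 in NTC-CCl4 livers, and 0 and 1 in sgBap1-Veh and 24, 44 and 22 in sgBap1-CCl4 livers. Per normalized library this was 9.98 times the vehicle level in NTC (95% interval of the counts 3.25 to 49.8) and 35.0 times in sgBap1 livers (6.13 to 1398), or 27.8 times without sgBap1-CCl4 2 (4.74 to 1120.8). The sgBap1-Veh livers held 1 count together, and against a floor of 3 counts over that group the ratios were 11.7 and 9.26. It was called higher in both (adjusted p = 0.00893 and 0.00221), the first lost without NTC-Veh 1 (adjusted p = 0.0621). The gene Itgad overlaps it on the other strand, at 0.0277 to 0.390 CPM. Cox6b2, the testis form of subunit 6b, had 5 and 12 counts in NTC-Veh and 34, 40 and 46 in NTC-CCl4 livers, and 10 and 12 in sgBap1-Veh and 89, 133 and 50 in sgBap1-CCl4 livers. For neither gene did the vehicle and CCl4 livers overlap. The ratio to vehicle was 3.71 in NTC (2.22 to 6.58) and 4.81 in sgBap1 livers (3.11 to 7.80), or 3.82 without sgBap1-CCl4 2 (2.42 to 6.29). It was called higher in both (adjusted p = 0.00930 and 0.00325), the NTC call lost without NTC-Veh 1 (adjusted p = 0.0860). Intervals cover counting error only. The common forms of these subunits were lower: Cox6a1 was at -0.75 and -0.61 and Cox6b1 at -0.69 and -0.70 in NTC and sgBap1 livers, and both were called.

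Cox7a1 and Cox8b, forms found in heart, muscle and brown fat, stood out in 1 liver. Cox8b had 491 counts (8.40 CPM) in sgBap1-CCl4 2 and at most 1 count in each of the other 9. Cox7a1 measured 0.545 and 0.499 CPM in NTC-Veh and 0.8101, 0.526 and 0.599 CPM in NTC-CCl4 livers, and 0.538 and 0.225 CPM in sgBap1-Veh and 0.4597, 5.32 and 0.6802 CPM in sgBap1-CCl4 livers. Its log2 fold change in sgBap1 livers was 2.45 (SE 1.07, adjusted p = 0.0808), and without sgBap1-CCl4 2 its ratio to vehicle was 1.37 (0.8503 to 2.27). Ucp1 had 4899 counts in that liver and at most 1 in any other, and Cidea 1717 against at most 21. Ndufa4l2, a relative of the complex IV subunit Ndufa4 that is known to respond to low oxygen, measured 1.497 and 1.44 CPM in NTC-Veh and 0.8101, 1.09 and 0.599 CPM in NTC-CCl4 livers, and 1.91 and 1.16 CPM in sgBap1-Veh and 0.681, 1.13 and 1.04 CPM in sgBap1-CCl4 livers, with -0.81 (SE 0.343, adjusted p = 0.0695) in NTC and -0.70 (SE 0.341, adjusted p = 0.103) in sgBap1 livers. Ndufa4 itself was at -0.82 and -0.83 and called in both.

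**Figure D5:**
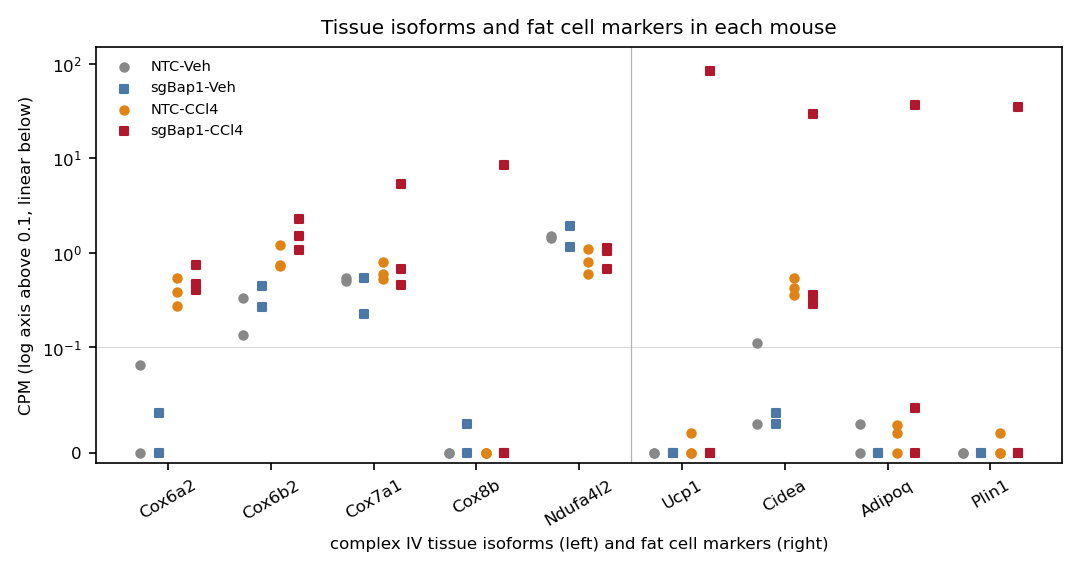
CPM in each mouse of the 5 tissue isoforms (left) and of 4 fat cell markers (right), on a log axis above 0.1 CPM and a linear one below. One sgBap1-CCl4 liver holds 8.40 CPM of Cox8b, 5.32 CPM of Cox7a1 and 83.9 CPM of Ucp1, while Cox6a2 and Cox6b2 are above the vehicle livers in all 6 CCl4 livers.

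Assembly factors build the complexes without staying in them. Of the 9 among the members (Ndufaf1 to Ndufaf8 for complex I, and Cox7a2l, which joins complexes III and IV), 7 were called lower in each genotype, against 26.3% and 27.7% of all tested genes, with medians of -0.67 and -0.65. Ndufaf1 measured 30.5 and 28.5 CPM in NTC-Veh and 13.9, 14.2 and 14.6 CPM in NTC-CCl4 livers, and 28.4 and 35.2 CPM in sgBap1-Veh and 13.7, 11.97 and 16.7 CPM in sgBap1-CCl4 livers, with -1.05 (SE 0.136, adjusted p = 0.000105) in NTC and -1.17 (SE 0.135, adjusted p = 4.72e-05) in sgBap1 livers. Ndufaf5, a methyltransferase that modifies complex I, was the exception, at 4.63 and 3.85 CPM in NTC-Veh and 4.797, 4.302 and 3.85 CPM in NTC-CCl4 livers and log2 fold changes of 0.03 (SE 0.169, adjusted p = 0.906) in NTC and 0.19 (SE 0.172, adjusted p = 0.369) in sgBap1 livers. Its groups overlapped. Ndufaf4 measured 30.2 and 34.4 CPM in NTC-Veh and 22.8, 21.5 and 20.2 CPM in NTC-CCl4 livers, and 34.02 and 47.2 CPM in sgBap1-Veh and 16.99, 15.6 and 21.5 CPM in sgBap1-CCl4 livers. Its log2 fold changes were -0.59 (SE 0.1598, adjusted p = 0.0105) in NTC and -1.17 (SE 0.159, adjusted p = 0.0001499) in sgBap1 livers, the NTC call being lost without NTC-Veh 2 (adjusted p = 0.0886). Ndufaf7, with NTC and sgBap1 values of -0.35 and -0.47, lost its NTC call in 7 of the 10 fits that leave out 1 mouse, and its sgBap1 call without sgBap1-Veh 2 (adjusted p = 0.131). Ndufaf2 was at -0.33 (SE 0.142, adjusted p = 0.0729) in NTC and -0.19 (SE 0.143, adjusted p = 0.274) in sgBap1 livers. Of the gene copies, Ndufb4c was called lower in both (-0.95 and -0.98), but all of its 50-base stretches are shared with Ndufb4, so the 2 cannot be told apart. Cox6c2, with 52.7% of its stretches shared with Cox6c, had 0 to 25 counts in a mouse and was not called.

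Targeting Bap1 left no member called. With vehicle, 0 of 104 were called between sgBap1-Veh and NTC-Veh livers, where 0.523% of all tested genes were, and 1 nuclear member had an unadjusted p under 0.05, against 12.6% of all tested genes. The median was 0.07 over nuclear and 0.08 over mitochondrial members, beside 0.02 over all tested genes. Nuclear members that did not overlap between the groups were higher in sgBap1-Veh for 11 and lower for 2, against 21.7% and 19.2% of all tested genes. The smallest p was that of Ndufa13, a complex I accessory subunit also known as GRIM-19. It measured 92.5 and 85.8 CPM in NTC-Veh and 53.96, 53.2 and 47.3 CPM in NTC-CCl4 livers, and 111 and 114 CPM in sgBap1-Veh and 49.7, 50.5 and 67.3 CPM in sgBap1-CCl4 livers, a vehicle difference of 0.34 (SE 0.14, unadjusted p = 0.0378, adjusted p = 0.356). The next were Sdhb at 0.25 (SE 0.113, adjusted p = 0.401) and Atp5j2, a membrane subunit of ATP synthase, at 0.24 (SE 0.111, adjusted p = 0.401). All 4 complex II subunits were higher in both sgBap1-Veh livers than in both NTC-Veh livers, by 0.10 to 0.25 on the log2 scale, and none was called. The lowest and highest differences were -0.23 (Ndufaf5), -0.15 (Ndufaf2), 0.33 (Ndufaf4) and 0.34 (Ndufa13) in complex I, and 0.02 (Uqcrfs1), 0.04 (Uqcrc2), 0.19 (Uqcr11) and 0.23 (Uqcrb) in complex III. In complex V they were -0.07 (Atp5b), -0.04 (Atp5d), 0.16 (Atp5h) and 0.24 (Atp5j2), and in complex IV -1.24 (Cox6a2), -0.41 (Cox7a1), 0.15 (Ndufa4) and 0.58 (Cox6b2), of which the isoforms rest on few counts. Leukocyte markers moved with this comparison, at 163 and 227 CPM summed in NTC-Veh and 328 and 440.4 CPM in sgBap1-Veh livers, and Ptprc and Csf1r were called higher. Their part in these differences was not tested.

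With CCl4, 0 of 104 were called between sgBap1 and NTC livers (0.253% of all tested genes), and 3 had an unadjusted p under 0.05, against 13.4% of all tested genes. The medians were 0.05 over nuclear and -0.12 over mitochondrial members, beside 0.00 over all tested genes. Without sgBap1-CCl4 2, the liver with fat cell RNA, these medians were 0.04 and -0.07, beside -0.01. Then 1 nuclear and 1 mitochondrial member had an unadjusted p under 0.05, against 1685 of 16825 tested genes. With all mice, the 3 members with an unadjusted p under 0.05 were Cox7a2l, mt-Nd5 and Cox6b2. Cox7a2l measured 64.6, 72.1 and 60.2 CPM in NTC-CCl4 and 77.2, 81.00 and 78.3 CPM in sgBap1-CCl4 livers, without overlap, and 109 and 114 against 106 and 116 CPM with vehicle. The difference with CCl4 was 0.26 (SE 0.0833, adjusted p = 0.209), and the interaction 0.26 (SE 0.132, adjusted p = 0.531). mt-Nd5 was lower in every sgBap1-CCl4 than in every NTC-CCl4 liver, with a difference of -0.34 (SE 0.1197, adjusted p = 0.263). DESeq2's Wald test called it (adjusted p = 0.0171). Cox4i1, Cox5a and Cox6a1 were also higher in all 3 sgBap1-CCl4 than in all 3 NTC-CCl4 livers, which with Cox7a2l makes 4 of 91 nuclear members, against 10.1% of all tested genes. mt-Nd5 was the 1 member wholly lower in sgBap1, against 10.2%. The extremes were -0.26 (Ndufaf4), -0.21 (Ndufaf7), 0.18 (Ndufa1) and 0.18 (Ndufaf6) in complex I, -0.05 (Uqcrb), -0.01 (Uqcrc2), 0.08 (Uqcr11) and 0.10 (Uqcr10) in complex III, and -0.11 (Atp5md), -0.05 (Atp5g1), 0.10 (Atp5g2) and 0.14 (Atp5d) in complex V. In complex IV they were -0.89 (Cox6c2), -0.06 (Cox7b), 0.87 (Cox6b2) and 1.74 (Cox7a1), the last resting on the liver with fat cell RNA.

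Whether the CCl4 effect depended on the genotype was tested as the interaction. By edgeR's quasi-likelihood test 0 of 104 members were called, as were 0 of all tested genes (0.0%), while DESeq2's Wald test called 411 genes and none of the members. An unadjusted p under 0.05 was found for Ndufaf4, at -0.58 (SE 0.228, adjusted p = 0.397), and mt-Nd6, at -0.87 (SE 0.362, adjusted p = 0.439), which are 2 of 104 members against 10.6% of all tested genes. Without sgBap1-CCl4 2, the liver with fat cell RNA, 0 nuclear and 0 mitochondrial members had one, against 1796 of 16825 tested genes. The median interaction was -0.03 over nuclear members and -0.31 over the 13 mitochondrial mRNAs, beside -0.02 over all tested genes. All 13 were negative, and without sgBap1-CCl4 2 the median was -0.15. Summed with copies the median was -0.23, or -0.18 without that liver and -0.12 without NTC-Veh 2. Mitochondrial mRNAs are cut from shared precursors and are not 13 independent observations. Side by side, the NTC and sgBap1 effects of CCl4, which share no mice but share the normalization and the dispersion estimate, had a Pearson correlation of 0.85 and a Spearman correlation of 0.77 across the 76 nuclear-encoded subunits. The effect was lower in sgBap1 for 48 of them, with a median difference of -0.04. Of the nuclear members called lower, 82 were called in both genotypes, all of those in NTC and 98.8% of those in sgBap1, with Ndufs6 added. Of the mitochondrial members as deposited, 6 were called in both, all of those in NTC and 54.5% of those in sgBap1. As deposited, mt-Atp6, mt-Atp8, mt-Co2, mt-Co3 and mt-Nd1 were called in sgBap1 livers alone, and none of these 5 was called for the interaction. Summed with copies, mt-Atp6 (adjusted p = 0.0269) and mt-Co3 (adjusted p = 0.0113) were called in NTC livers too. The summed counts were 8 of 13 in NTC and 13 of 13 in sgBap1 livers.

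Genes that serve oxidative phosphorylation from outside the complexes were counted in the same way. The shares of all tested genes to set beside these counts are 26.3% lower and 27.5% higher in NTC, and 27.7% lower and 29.0% higher in sgBap1 livers. Of 40 further assembly factors tested, 27 were called lower and 1 higher in NTC and 32 and 0 in sgBap1 livers, with medians of -0.49 and -0.54. Of 14 enzymes of the tricarboxylic acid cycle, 11 and 9 were called lower and none higher, with medians of -0.62 and -0.47. Of 17 genes for electron carriers and coenzyme Q synthesis, 11 were called lower and 2 higher in NTC and 10 and 2 in sgBap1 livers (medians -0.51 and -0.55). Cytochrome c (Cycs), which carries electrons from complex III to complex IV, was not called, at 127 and 119 CPM in NTC-Veh and 122, 118 and 118 CPM in NTC-CCl4 livers. Among 7 carriers and channels of the mitochondrial membranes, 3 were called lower and 2 higher in NTC, and 2 and 2 in sgBap1 livers (medians -0.02 and -0.11), too few genes to set apart from the shares of all tested genes. The adenine nucleotide carriers went apart: Slc25a4 rose by 1.65 and 1.75, whereas Slc25a5 was at -0.41 and -0.63, called lower in both. Ucp2, a carrier of the inner membrane, rose by 1.48 and 0.88.

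Of 22 genes for transcription and processing of mitochondrial DNA and RNA, 14 were called lower and 0 higher in NTC, and 15 and 1 in sgBap1 livers (medians -0.47 and -0.51), against 26.3% lower and 27.5% higher, and 27.7% and 29.0%, of all tested genes. Tfam, which packs mitochondrial DNA and starts its transcription, measured 53.3 and 50.02 CPM in NTC-Veh and 40.4, 37.9 and 33.9 CPM in NTC-CCl4 livers, and 45.5 and 52.1 CPM in sgBap1-Veh and 33.02, 29.3 and 38.6 CPM in sgBap1-CCl4 livers, called lower at -0.46 and -0.54. Tfb2m, its partner at the promoter, was called lower at -0.66 and -0.57. Polrmt, the mitochondrial RNA polymerase, was not called, at -0.22 and -0.17. Of 16 regulators of nuclear subunit genes, 8 were called lower and 3 higher in NTC, and 6 and 3 in sgBap1 livers (medians -0.38 and -0.18), with the same shares of all tested genes to set beside them. With CCl4, Foxo1 was the 1 member of this list called between the genotypes, higher in sgBap1 by 0.86 (adjusted p = 0.02005), named after its value was seen. The coactivator Ppargc1a measured 19.4 and 16.96 CPM in NTC-Veh and 8.08, 7.74 and 7.16 CPM in NTC-CCl4 livers, and 15.9 and 9.17 CPM in sgBap1-Veh and 10.01, 8.47 and 8.48 CPM in sgBap1-CCl4 livers. It was called lower in NTC (-1.24, adjusted p = 0.000355) and not in sgBap1 livers (-0.48, adjusted p = 0.0539), and the interaction was not called (0.76, adjusted p = 0.357). Its relative Ppargc1b was called lower in both, at -1.06 and -1.27, whereas Pprc1 was called higher, at 1.09 and 1.10. The receptor Esrra was called lower at -0.86 and -1.06, and Gabpa, a subunit of GABP, at -0.45 and -0.45. Nrf1, which encodes NRF1, was at 0.19 in NTC (adjusted p = 0.158) and called higher in sgBap1 livers (0.42, adjusted p = 0.00651).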

How the data were processed

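Livers of 10 mice were profiled by poly(A) RNA-seq. The submitters' processing notes name STAR 2.7.6a, Salmon 1.4.0 and GRCm38, and the paper's methods GENCODE vM25. The deposited values are Salmon's estimated counts (expected counts) per gene symbol, not normalized by the authors, and 9.22% of them are not whole. The Salmon library type is not given in the sources used here.

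Counts were rounded, filtered with filterByExpr over the 4 groups (17015 of 55291 genes kept), TMM-normalized (factors 0.786 to 0.851 with vehicle, 1.08 to 1.24 with CCl4) and fitted with glmQLFit (robust) in edgeR 4.0.16 on R 4.3.3, in a single model of the 4 groups. Comparisons were tested with the quasi-likelihood test, two-sided, Benjamini-Hochberg adjusted over the tested genes, threshold 0.05. The method was tested on simulated counts.

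Members and gene lists were chosen with earlier results of these data known. Named are all mitochondrial and complex II members, the 2 lowest and 2 highest log2 fold changes of each other complex in each pairwise comparison, isoform pairs, members at the count limit, and a fixed set of pathway genes. Members with the smallest p between genotypes, and the others, were named after their values were seen. Transcript lengths, positions and shared 50-base stretches come from GENCODE vM21, promoters from RefSeq. Alternatives were DESeq2 1.42.0, other size factors, other filters, the replicate block, a fit of just the pair of groups, and fits that omit a single mouse. Labels give no batch, and each replicate they number was taken to be 1 mouse.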

Additional observations from a re-analysis of the deposited data

How the results depend on the processing

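Scaling by library size alone changed the most. Nuclear members called after CCl4 then numbered 47 in NTC and 52 in sgBap1 livers, with medians of -0.27 and -0.29, and mitochondrial members called numbered 0 and 1, with medians of 0.038, a reversal in NTC, and -0.26. The shift of all genes under that scaling, given above, accounts for it by construction. DESeq2's Wald test called 1 mitochondrial member, mt-Nd5, between the genotypes with CCl4. Leaving out 1 mouse at a time, mitochondrial members called in NTC ranged from 1 (without NTC-Veh 1) to 7, or 11 when summed with copies (without sgBap1-CCl4 2), and their median from -0.58 to -0.38, or -0.36 summed. Their median in sgBap1 livers ranged from -0.84 to -0.60, and the nuclear median of sgBap1-Veh against NTC-Veh from 0.0003 to 0.16. The mitochondrial interaction ranged from -0.34 to -0.15, and summed it was -0.18 without sgBap1-CCl4 2 and -0.12 without NTC-Veh 2. Nuclear members called ranged from 76 to 85 in NTC and 80 to 86 in sgBap1 livers. Under the other settings 167 values kept direction and size, 8 moved and 1 reversed, and without a mouse 389 kept them and 11 moved. The cause of the other differences was not tested. With 2 vehicle mice a genotype, leaving out 1 rests the spread on the other groups.

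The labels give the groups shared replicate numbers. Deviations of same-numbered mice correlated at -0.15 to 0.10 over 13 pairs, and the numbers were not taken to pair the mice. In groups of 2 mice the deviations from the group mean mirror each other, so these pairs are not independent. Differently numbered mice were not compared, so the check cannot exclude pairing. With the replicate block, 82 nuclear members were called in NTC and 84 in sgBap1 livers, with medians of -0.75 and -0.77, mitochondrial members 6 and 10, with medians of -0.54 and -0.82, and none between the genotypes.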

Other observations

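The mRNAs of mitochondrial and cytosolic ribosomal proteins were counted as 2 further lists. Of 78 genes for mitochondrial ribosomal proteins, which translate the mitochondrial mRNAs, 44 were called lower and 3 higher in NTC livers (median -0.29) and 46 and 2 in sgBap1 livers (median -0.31), beside 26.3% and 27.7% of all tested genes called lower. Of 86 tested genes for cytosolic ribosomal proteins, 27 were called higher and 2 lower in NTC (median 0.24) and 57 and 2 in sgBap1 livers (median 0.41), beside 27.5% and 29.0% called higher, so that the NTC count called higher lay near the share of all tested genes. By mouse, the mitochondrial list stood at -0.39 to -0.21 relative to NTC-Veh in the 6 CCl4 livers and the cytosolic list at 0.10 to 0.48. The lowest cytosolic value with CCl4 was 0.10 in NTC-CCl4 3 and the highest vehicle value 0.09 in sgBap1-Veh 2. Cytosolic ribosomal protein genes have many processed copies in the genome, and how counts were divided among them was not tested.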
